A study of Rattus norvegicus and Mus musculus with 24 samples.

Results

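Macrophages and the other myeloid cells of the kidney were followed through 44 genes of their lineage, surface receptors, lysosomes and oxidase. Not all of these are limited to myeloid cells. Among them 7 are grouped as leukocyte genes, and tubule or stromal cells also make LGMN, MERTK, AXL and CSF1. The genes were taken as a list of symbols, each matched to the row of the same symbol in the deposited mouse and rat tables. Of the 44 genes, 39 were in the mouse table of 17376 symbols and 41 in the rat table of 14931 symbols, 38 were in both, and FCGR2B and NCF1 were in neither. The mouse table also lacked FCGR1A, LILRB4 and FOLR2, and the rat table lacked CLEC7A. Bulk RNA was sequenced from kidneys of 4 Ctns KO and 4 Ctns WT mice and of 8 Ctns KO and 8 Ctns WT rats, 1 library per animal. Ctns encodes cystinosin, the lysosomal cystine exporter that is lost in the storage disease cystinosis. The mice were on a C57BL/6 background and the rats were Sprague-Dawley, with littermate controls, and no group received a treatment as far as the labels say; age and sex are not given in the labels. The labels name kidney cortex as the tissue and proximal tubule cells as the cell type, and they also describe dissected tubules, whereas the methods describe cortex. The rats carry numbers from 17 to 32. Both ranges, 17 to 24 and 25 to 32, hold 4 Ctns KO and 4 Ctns WT animals. What the numbers stand for is not given in the sources used here, so the number ranges are used only as the labels give them.

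Macrophages arise from monocytes and from cells that seed the organ before birth. They depend on the receptor CSF1R and its ligands, which tubule cells and stroma make, and on the transcription factor SPI1 (PU.1). In the kidney they lie between the tubules, take up debris and dying cells through scavenger receptors and receptor kinases, and break it down in lysosomes. In bulk kidney RNA, fewer or more macrophages and less or more RNA per macrophage cannot be told apart.

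Mouse values are the deposited scaled values, in which 1 is the 75th percentile of the library. Rat values are counts scaled to the reads on genes that passed edgeR's filter on low counts, with its TMM library factors (CPM). Sums over genes in the mice are recovered reads scaled to all reads on genes, without TMM factors. CPM is thus scaled differently in the mice and the rats. Within a group, values are listed in the order of the animal numbers: Ctns WT mice 1, 2, 4 and 7, Ctns KO mice 3, 5, 6 and 8, odd-numbered Ctns WT rats and even-numbered Ctns KO rats. Mouse differences were tested with limma on log2(value + 0.1), a scale that understates the change of low genes, so the edgeR value on recovered reads is also given for each member with a limma value that passed edgeR's filter on low counts. Rat differences were tested with the edgeR quasi-likelihood test. Adjusted p-values are Benjamini-Hochberg values over all symbols of the table tested, with a threshold of 0.05, and fold changes are Ctns KO against Ctns WT on the log2 scale, with their standard error (SE). The methods count 4 mice and 8 rats per group, but which animals share a litter is not given. The p-values set each group difference against the spread between these samples only.

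Libraries held 19309401 to 44449807 reads on genes in the mice and 24684042 to 40629810 in the rats. CTNS itself was 0.918 ± 0.0868 (SD, n = 4) in Ctns WT mice and 0.332 ± 0.0102 (SD, n = 4) in Ctns KO mice, with a log2 fold change of -1.23 (SE 0.06, adjusted p = 0.000391) in limma. In the rats it was 22.3 ± 2.98 CPM (SD, n = 8) in Ctns WT and 19.1 ± 1.86 CPM (SD, n = 8) in Ctns KO, a log2 fold change of -0.22 (SE 0.08, adjusted p = 0.0511) in edgeR with overlapping groups, while DESeq2 gave an adjusted p of 0.0402 and edgeR with a term for the number range gave 0.0239. Within the ranges edgeR gave -0.11 (SE 0.08, adjusted p = 0.514) in rats 17 to 24, which did not pass. In rats 25 to 32 it gave -0.32 (SE 0.11, adjusted p = 0.0391), past the threshold. The CTNS groups overlapped in both ranges. The rat genotypes therefore rest on the labels and not on this transcript. Markers of distal nephron, podocytes and endothelium were detected in every library beside those of the proximal tubule, with the 8 distal nephron genes summing to 8130 to 9402 CPM in Ctns WT mice and the 6 listed in the rat table to 3204 to 4880 CPM in Ctns WT rats. The libraries thus hold RNA of more cell types than the label names.

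For the 3 members with the largest called change in the rats that have an entry, the reference promoter is shown, since these genes carry the strongest difference. The windows run from 250 bases before to 50 bases after the annotated start in RefSeq for the rat build GRCr8, which is not the build named in the submitters' processing notes. Capitals mark GAGGAA, the core of the box bound by SPI1 (PU.1), or its reverse complement TTCCTC, and in GPNMB also CACATGA, the reverse complement of TCATGTG, the M-box bound by MITF and its relatives.
GPNMB (chr4:79340878-79341177, plus strand): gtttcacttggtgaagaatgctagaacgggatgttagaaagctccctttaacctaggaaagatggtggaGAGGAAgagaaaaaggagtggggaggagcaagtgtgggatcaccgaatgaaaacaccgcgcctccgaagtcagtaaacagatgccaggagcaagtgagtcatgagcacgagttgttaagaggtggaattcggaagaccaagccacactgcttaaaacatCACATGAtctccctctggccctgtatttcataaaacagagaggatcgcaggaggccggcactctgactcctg
TREM2 (chr9:20151730-20152029, minus strand): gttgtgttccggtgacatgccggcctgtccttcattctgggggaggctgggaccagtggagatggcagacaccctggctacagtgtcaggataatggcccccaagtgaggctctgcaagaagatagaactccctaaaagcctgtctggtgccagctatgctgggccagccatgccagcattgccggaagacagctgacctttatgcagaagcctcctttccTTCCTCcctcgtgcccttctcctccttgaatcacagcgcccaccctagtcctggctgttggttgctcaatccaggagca
MRC1 (chr17:82157475-82157774, plus strand): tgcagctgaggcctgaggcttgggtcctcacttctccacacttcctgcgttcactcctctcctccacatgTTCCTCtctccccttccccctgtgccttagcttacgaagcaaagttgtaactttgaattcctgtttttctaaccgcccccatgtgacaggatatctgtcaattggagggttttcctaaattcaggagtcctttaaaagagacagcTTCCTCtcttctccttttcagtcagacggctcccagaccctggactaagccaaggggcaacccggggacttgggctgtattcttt
Of the 44 members, 31 had such a window. GAGGAA on either strand was found in windows of 17 of these 31 genes (54.8%) and in 27.6% of all 33469 windows. TCATGTG on either strand was found in 1 of the 31 genes, GPNMB (3.23%), and in 3.56% of all windows. The motifs do not overlap each other in the 3 windows shown. These matches describe letters in a window; binding was not measured.

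Most members were higher in Ctns KO in the rats, and nearly all calls in both species were upward. In the mice 18 of the 39 members tested were higher in Ctns KO and 0 were lower, beside 3.81% higher and 0.904% lower among all symbols, and the median log2 fold change of the members was 0.29, beside 0.00025 for all symbols. That all-symbol median is the value of a symbol with 0 reads in every mouse, such as MARCO. No filter was set for limma, so its all-symbol shares also count symbols without reads. A total of 23 members had every Ctns KO mouse above every Ctns WT mouse, beside 7.66% of all symbols. With edgeR on the recovered mouse reads, 24 of the 35 members that passed its filter on low counts were higher and 0 lower, beside 6.06% and 2.85% of all symbols. The median there was 0.66 for the members and -0.01 for all symbols. In each of these mouse tests 1 member with a negative change, MERTK, had an unadjusted p under 0.05. Over all symbols, limma called 662 higher and 157 lower and edgeR 815 higher and 383 lower, so the balance of directions depends on the test.

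In the rats 29 of the 37 members tested were higher in Ctns KO and 1, MERTK, was lower, beside 15.2% higher and 12.3% lower among all symbols, with a median log2 fold change of 0.81 for the members and -0.02 for all symbols. Among rats 17 to 24, 22 of 38 members were higher and 0 lower, beside 5.07% and 2.19% of all symbols, with a median of 0.55 for the members, and MERTK alone had a negative change at an unadjusted p under 0.05 in edgeR. Among rats 25 to 32, 31 of 38 were higher and 1 lower, beside 21.8% and 22.1% of all symbols, with a median of 1.06. All Ctns KO rats lay above all Ctns WT rats for 12 members, beside 3.89% of all symbols, and within ranges this held for 25 members among rats 17 to 24, beside 7.85%, and for 30 among rats 25 to 32, beside 20.4%. Members higher in both ranges numbered 22 of the 38 tested in both, beside 4.75% of all symbols. Members higher in both the mice and all rats numbered 14 of the 34 tested in both, beside 2.84% of all symbols: CSF1, PTPRC, LAPTM5, ITGAM, CD68, AIF1, TYROBP, TREM2, CD84, MRC1, AXL, GPNMB, C5AR1 and HAVCR2.

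Single animals moved these counts, for the members and for all symbols. The mouse count fell from 18 to 11 without Ctns WT mouse 4 or without Ctns KO mouse 5, while the count upward over all 17376 symbols fell from 662 to 380 and 394. In the mice 11 members kept their call whichever mouse was left out. Among rats 17 to 24 the count fell from 22 to 14 without Ctns KO rat 24, while that over all symbols fell from 589 of 11610 to 392 of 11661. In that range 13 members kept their call whichever rat was left out. The 29 calls upward over all rats were kept in every such fit, and so were 30 of the 31 among rats 25 to 32, all but SLC11A1.

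**Figure D1:**
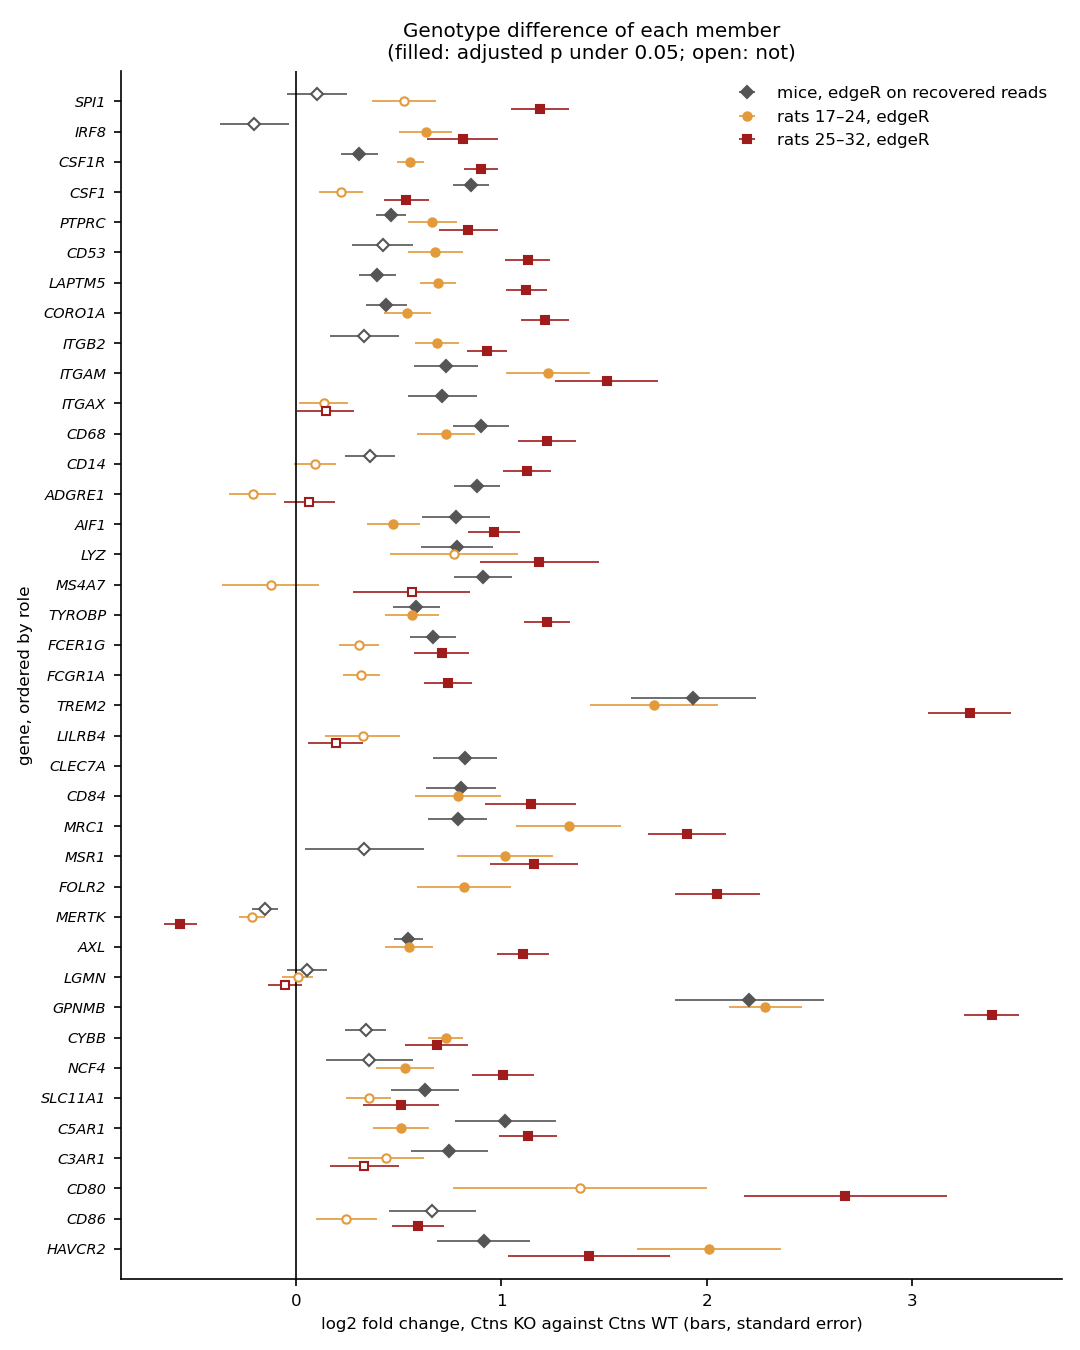
Log2 fold change of Ctns KO against Ctns WT (x axis, bars are standard errors) for each member tested (y axis, ordered by role) in mice (edgeR on recovered reads), rats 17 to 24 and rats 25 to 32; filled symbols passed an adjusted p of 0.05. GPNMB and TREM2 lie farthest to the right in rats 25 to 32, at 3.39 and 3.28, and MERTK is the only filled symbol left of 0.

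The lineage genes rose in the rats, whereas in the mice the growth factor alone of these 4 passed in limma. CSF1, the growth factor of macrophages, was 0.284, 0.335, 0.363 and 0.341 in Ctns WT mice and 0.56, 0.662, 0.578 and 0.617 in Ctns KO mice, and the groups did not overlap. CSF1 rose in the mice by 0.71 (SE 0.07, adjusted p = 0.00369) in limma. CSF1 rose by 0.85 (SE 0.09, adjusted p = 5.39e-05) on the recovered mouse reads (edgeR). In the rats CSF1 was 15.8, 19.8, 13.6 and 16.5 CPM in Ctns WT and 16.6, 19.9, 19.7 and 19.9 CPM in Ctns KO rats 17 to 24. For CSF1 in the other range the values were 12.5, 14.4, 14.5 and 12.6 CPM in Ctns WT and 17.5, 19.8, 23.2 and 18 CPM in Ctns KO rats 25 to 32. The CSF1 groups overlapped in rats 17 to 24 but not in rats 25 to 32. The log2 fold change of CSF1 was 0.37 (SE 0.09, adjusted p = 0.0071) over all rats, 0.22 (SE 0.11, adjusted p = 0.271) in rats 17 to 24 and 0.54 (SE 0.11, adjusted p = 0.00288) in rats 25 to 32 in edgeR.

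CSF1R, the receptor of CSF1, was 0.911, 1.03, 0.971 and 1.25 in Ctns WT mice and 1.22, 1.34, 1.31 and 1.36 in Ctns KO mice. CSF1R in Ctns WT mouse 7 lay above Ctns KO mouse 3, so the groups overlapped, and the change of 0.31 (SE 0.09, adjusted p = 0.102) did not pass in limma, while edgeR on recovered reads gave 0.31 (SE 0.09, adjusted p = 0.0459). In rats CSF1R was 30.1, 30.9, 26.8 and 28.5 CPM in Ctns WT and 39, 42.1, 45.3 and 43.6 CPM in Ctns KO rats 17 to 24. For CSF1R in the higher numbers the values were 37.7, 42.1, 40.1 and 38.5 CPM in Ctns WT and 73.3, 83.2, 74.5 and 64.6 CPM in Ctns KO rats 25 to 32. Every Ctns KO rat lay above every Ctns WT rat of its range, and Ctns WT rats 25 to 32 reached the level of Ctns KO rats 17 to 24. CSF1R rose by 0.56 (SE 0.07, adjusted p = 0.000335) in rats 17 to 24 and by 0.90 (SE 0.08, adjusted p = 2.27e-05) in rats 25 to 32 in edgeR.

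SPI1, the transcription factor that sets the myeloid fate, did not pass in the mice at 0.07 (SE 0.06, adjusted p = 0.668) in limma. SPI1 gave 0.10 (SE 0.15, adjusted p = 0.757) on the recovered mouse reads (edgeR), which did not pass. It rose over all rats by 0.92 (SE 0.20, adjusted p = 0.00309), with 1.19 (SE 0.14, adjusted p = 0.000109) in rats 25 to 32 and 0.52 (SE 0.16, adjusted p = 0.065), which did not pass, in rats 17 to 24 in edgeR. IRF8, a transcription factor of monocytes and dendritic cells, was 0.723, 0.508, 0.603 and 0.384 in Ctns WT mice and 0.517, 0.509, 0.482 and 0.444 in Ctns KO mice. The IRF8 groups overlapped in the mice, and the change of -0.13 (SE 0.15, adjusted p = 0.772) did not pass in limma. IRF8 gave -0.20 (SE 0.17, adjusted p = 0.542) on the recovered mouse reads (edgeR), which did not pass. IRF8 in rats was 8.5, 9.38, 6.92 and 9.89 CPM in Ctns WT and 11.3, 12.4, 15.7 and 14 CPM in Ctns KO rats 17 to 24. For IRF8 in the later numbers the values were 10.5, 8.61, 10.5 and 8.23 CPM in Ctns WT and 14.4, 19.4, 20.2 and 11.9 CPM in Ctns KO rats 25 to 32. The IRF8 groups did not overlap in either rat range or over all rats. It rose by 0.63 (SE 0.13, adjusted p = 0.0107) in rats 17 to 24 and 0.81 (SE 0.17, adjusted p = 0.00361) in rats 25 to 32 in edgeR.

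Of 7 leukocyte genes, among them the integrin chains, 3 were higher in the mice and 6 in each rat range, and 0 were lower in limma or edgeR. PTPRC, the leukocyte phosphatase CD45, was 0.363, 0.392, 0.363 and 0.392 in Ctns WT mice and 0.522, 0.571, 0.508 and 0.505 in Ctns KO mice, with no overlap. PTPRC in rats was 15.9, 17.8, 10.9 and 14.3 CPM in Ctns WT and 22.1, 22.7, 24.6 and 23.5 CPM in Ctns KO rats 17 to 24. For PTPRC the second range gave 17.1, 20.9, 17.5 and 15.3 CPM in Ctns WT and 29.6, 31.4, 40.3 and 25.5 CPM in Ctns KO rats 25 to 32. No PTPRC value of a Ctns KO rat fell among those of Ctns WT rats, over all 16 rats. Its log2 fold change was 0.39 (SE 0.04, adjusted p = 0.00595) in the mice (limma), 0.66 (SE 0.12, adjusted p = 0.0063) in rats 17 to 24 and 0.84 (SE 0.14, adjusted p = 0.00108) in rats 25 to 32 (edgeR). PTPRC rose by 0.46 (SE 0.07, adjusted p = 0.000985) on the recovered mouse reads (edgeR).

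LAPTM5, a lysosomal membrane protein of blood cells, was 0.301, 0.248, 0.286 and 0.28 in Ctns WT mice and 0.377, 0.394, 0.343 and 0.379 in Ctns KO mice. LAPTM5 in rats was 20.6, 19.5, 16.3 and 16.9 CPM in Ctns WT and 26.8, 28.7, 31.7 and 30.1 CPM in Ctns KO rats 17 to 24. For LAPTM5 the second range gave 25.3, 25.2, 27.9 and 25.1 CPM in Ctns WT and 48.7, 67.2, 57.2 and 52 CPM in Ctns KO rats 25 to 32. The LAPTM5 groups did not overlap in the mice or in either rat range. It rose by 0.32 (SE 0.05, adjusted p = 0.0193) in the mice (limma). For LAPTM5, leaving out any 1 of 3 animals (WT 4 and KO 3, 5) ended the call (adjusted p 0.0517 to 0.0626) in the mice. LAPTM5 rose by 0.40 (SE 0.09, adjusted p = 0.0123) on the recovered mouse reads (edgeR). LAPTM5 rose by 0.69 (SE 0.09, adjusted p = 0.000447) and 1.12 (SE 0.10, adjusted p = 1.85e-05) in the 2 rat ranges (edgeR).

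CORO1A, an actin-binding protein of leukocytes, was 0.285, 0.308, 0.261 and 0.257 in Ctns WT mice and 0.343, 0.448, 0.351 and 0.378 in Ctns KO mice; the groups did not overlap, but the change of 0.34 (SE 0.08, adjusted p = 0.054) did not pass in limma. CORO1A rose by 0.44 (SE 0.10, adjusted p = 0.0145) on the recovered mouse reads (edgeR). CORO1A in rats was 25.3, 25.4, 18.4 and 18.3 CPM in Ctns WT and 29.5, 32.4, 34.2 and 30.4 CPM in Ctns KO rats 17 to 24. For CORO1A the second range gave 28.7, 22.4, 29.4 and 24.3 CPM in Ctns WT and 53, 73, 59.2 and 57.1 CPM in Ctns KO rats 25 to 32. The CORO1A groups were apart in each range. It rose by 0.54 (SE 0.11, adjusted p = 0.0154) in rats 17 to 24. For CORO1A, leaving out KO 20 ended the call (adjusted p 0.0538) in rats 17 to 24. CORO1A rose by 1.21 (SE 0.12, adjusted p = 3.13e-05) in rats 25 to 32 (edgeR). CD53, a leukocyte tetraspanin, was 0.0753, 0.0838, 0.0717 and 0.102 in Ctns WT mice and 0.112, 0.117, 0.131 and 0.0932 in Ctns KO mice, with overlap and a change of 0.22 (SE 0.07, adjusted p = 0.137) that did not pass in limma. CD53 gave 0.42 (SE 0.15, adjusted p = 0.105) on the recovered mouse reads (edgeR), which did not pass. CD53 in rats was 7.85, 6.57, 4.7 and 6.75 CPM in Ctns WT and 9.997, 9.997, 10.8 and 10.2 CPM in Ctns KO rats 17 to 24. For CD53 the second range gave 8.33, 8.17, 8.33 and 7.49 CPM in Ctns WT and 15.6, 20.6, 18.3 and 16.1 CPM in Ctns KO rats 25 to 32. The CD53 values of all 8 Ctns KO rats lay above those of all 8 Ctns WT rats. It rose by 0.68 (SE 0.13, adjusted p = 0.00883) and 1.13 (SE 0.11, adjusted p = 3.13e-05) in the ranges (edgeR).

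The integrins differed among themselves. ITGAM, the alpha chain of the complement receptor CD11b/CD18, was 0.0607, 0.086, 0.0744 and 0.0834 in Ctns WT mice and 0.102, 0.155, 0.133 and 0.119 in Ctns KO mice, without overlap. ITGAM in rats was 1.25, 1.42, 1.11 and 1 CPM in Ctns WT and 2.11, 2.54, 2.92 and 3.55 CPM in Ctns KO rats 17 to 24. For ITGAM the second range gave 1.6, 1.99, 2.03 and 1.37 CPM in Ctns WT and 4.45, 6.74, 5.77 and 3.04 CPM in Ctns KO rats 25 to 32. The ITGAM groups did not overlap over all rats. It rose by 0.36 (SE 0.08, adjusted p = 0.0491) in the mice (limma). For ITGAM, leaving out any 1 of 7 animals (WT 1, 2, 4, 7 and KO 5, 6, 8) ended the call (adjusted p 0.0668 to 0.134) in the mice, as did a pseudocount of 1 (adjusted p 0.0614). ITGAM rose by 0.73 (SE 0.16, adjusted p = 0.00923) on the recovered mouse reads (edgeR). ITGAM rose by 1.23 (SE 0.20, adjusted p = 0.0029) and 1.51 (SE 0.25, adjusted p = 0.000803) in the rat ranges (edgeR). In the rat table ITGAM has the same values as ITGAD in every animal, so these 2 genes cannot be told apart there. ITGB2, the shared beta chain, was 0.0975, 0.104, 0.0724 and 0.107 in Ctns WT mice and 0.0888, 0.15, 0.117 and 0.129 in Ctns KO mice, with overlap and a change of 0.18 (SE 0.10, adjusted p = 0.399) that did not pass in limma; its mouse reads were not whole numbers, so more than 1 gene may stand under the symbol. ITGB2 gave 0.33 (SE 0.17, adjusted p = 0.263) on the recovered mouse reads (edgeR), which did not pass. ITGB2 in rats was 10.6, 9.85, 7.35 and 9.1 CPM in Ctns WT and 14.1, 14.2, 15.1 and 15.5 CPM in Ctns KO rats 17 to 24. For ITGB2 the second range gave 13.7, 14.8, 13.8 and 12.9 CPM in Ctns WT and 26.2, 28.3, 28.2 and 22.3 CPM in Ctns KO rats 25 to 32. The ITGB2 groups did not overlap within either range. It rose by 0.69 (SE 0.11, adjusted p = 0.00201) and 0.93 (SE 0.10, adjusted p = 4.69e-05) (edgeR). ITGAX, the CD11c chain of dendritic cells and some macrophages, did not pass in limma in the mice at 0.44 (SE 0.12, adjusted p = 0.0803), although the values of the genotypes were apart. ITGAX rose by 0.71 (SE 0.17, adjusted p = 0.0202) on the recovered mouse reads (edgeR). Over all rats ITGAX gave 0.13 (SE 0.11, adjusted p = 0.409) in edgeR, which did not pass.

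**Figure D2:**
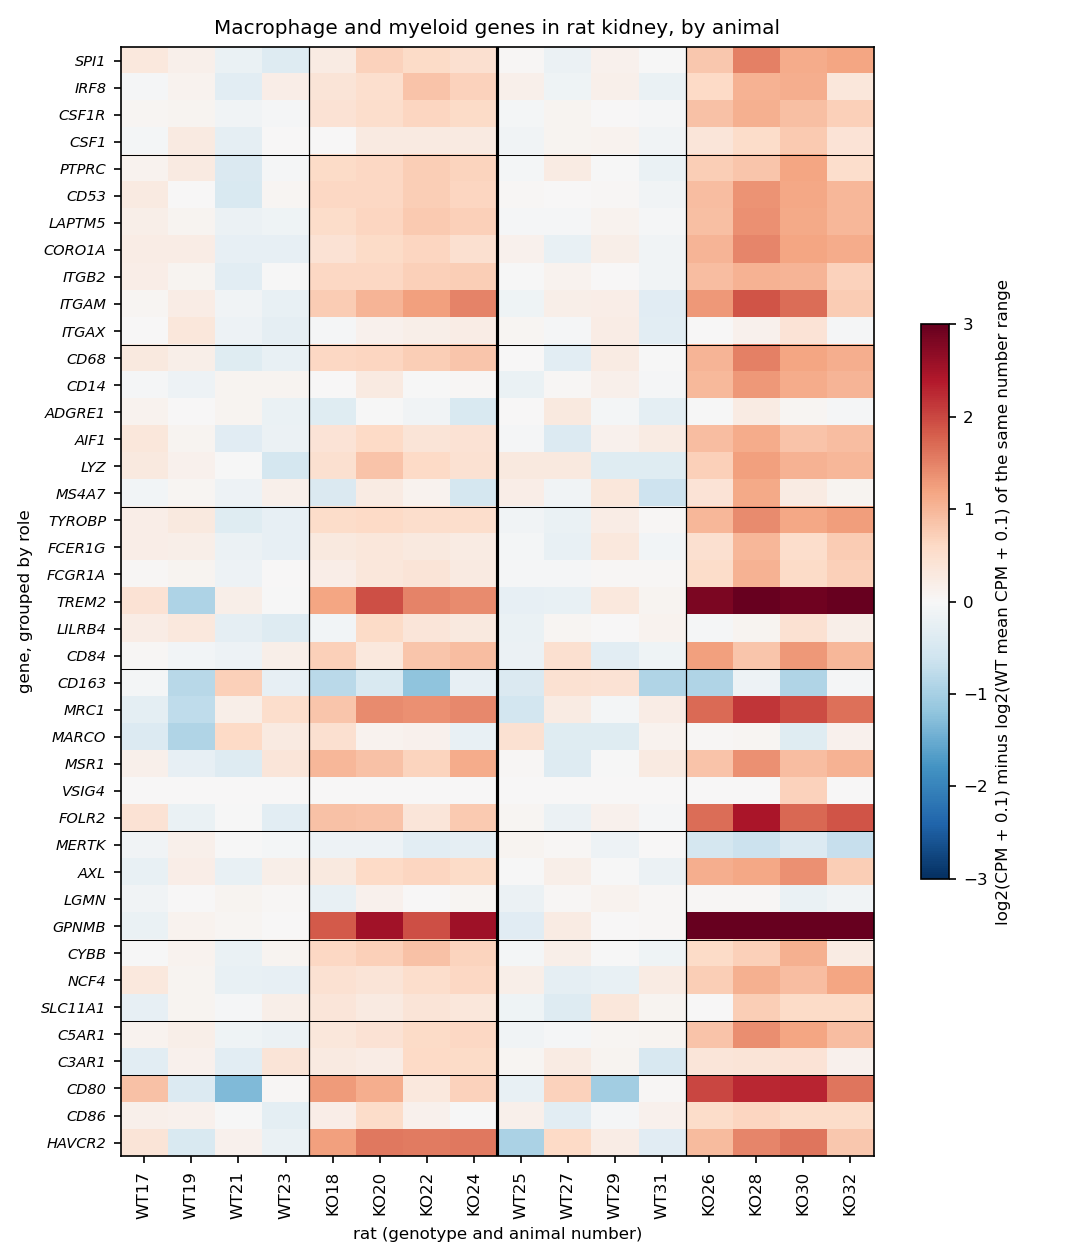
Each cell is 1 member (rows, grouped by role) in 1 rat (columns), coloured by log2(CPM + 0.1) minus the same for the mean of the Ctns WT rats of its number range, with values past 3 shown at the end of the scale. Red is higher: most rows are red in the 4 Ctns KO rats of each range and darker in rats 26 to 32, while MERTK is blue there and ITGAX, ADGRE1 and LGMN stay pale.

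Of 6 surface and lysozyme genes of macrophages 4 rose in the mice and 4 over all rats, with CD68 and AIF1 in both. CD68, a glycoprotein of macrophage lysosomes, was 0.0848, 0.127, 0.0978 and 0.081 in Ctns WT mice and 0.191, 0.186, 0.169 and 0.181 in Ctns KO mice, with no overlap. CD68 in rats was 7.69, 7.08, 4.8 and 5.37 CPM in Ctns WT and 9.61, 9.73, 10.4 and 11.2 CPM in Ctns KO rats 17 to 24. For CD68 the second range gave 9.93, 7.91, 11.8 and 9.71 CPM in Ctns WT and 19.9, 28.1, 22.4 and 21.1 CPM in Ctns KO rats 25 to 32. The CD68 groups did not overlap within either range. It rose by 0.52 (SE 0.07, adjusted p = 0.0103) in the mice (limma), 0.73 (SE 0.14, adjusted p = 0.00798) in rats 17 to 24 and 1.22 (SE 0.14, adjusted p = 8.33e-05) in rats 25 to 32 (edgeR). CD68 rose by 0.90 (SE 0.14, adjusted p = 0.000923) on the recovered mouse reads (edgeR). AIF1, an actin-bundling protein of macrophages, was 0.0524, 0.0433, 0.0374 and 0.0459 in Ctns WT mice and 0.0663, 0.0885, 0.0722 and 0.083 in Ctns KO mice, without overlap. AIF1 in rats was 21, 17.4, 13 and 14.5 CPM in Ctns WT and 21.9, 24.9, 21.5 and 22.3 CPM in Ctns KO rats 17 to 24. For AIF1 the second range gave 20.1, 15.4, 22.4 and 24.6 CPM in Ctns WT and 39.3, 44.6, 37.2 and 39.1 CPM in Ctns KO rats 25 to 32. The AIF1 groups were apart in each range. It rose by 0.29 (SE 0.05, adjusted p = 0.0203) in the mice (limma). For AIF1, leaving out any 1 of 5 animals (WT 4, 7 and KO 5, 6, 8) ended the call (adjusted p 0.0509 to 0.0571) in the mice. AIF1 rose by 0.78 (SE 0.17, adjusted p = 0.0093) on the recovered mouse reads (edgeR). Its rise was 0.47 (SE 0.13, adjusted p = 0.0484) in rats 17 to 24 (edgeR). For AIF1, leaving out any 1 of 7 animals (WT 19, 21, 23 and KO 18, 20, 22, 24) ended the call (adjusted p 0.0769 to 0.139) in rats 17 to 24, as did DESeq2's size factors in edgeR (adjusted p 0.0525) and the filter of at least 1 read in any rat (adjusted p 0.052). AIF1 rose by 0.96 (SE 0.13, adjusted p = 0.0002) in rats 25 to 32.

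ADGRE1, the adhesion receptor used to stain mouse macrophages, was 0.126, 0.13, 0.141 and 0.144 in Ctns WT mice and 0.231, 0.265, 0.293 and 0.221 in Ctns KO mice, and the groups were far apart. ADGRE1 in rats was 12.7, 11.8, 12.4 and 10.2 CPM in Ctns WT and 9.2, 11.7, 11 and 8.52 CPM in Ctns KO rats 17 to 24. For ADGRE1 the second range gave 15.5, 18.7, 14.6 and 12.5 CPM in Ctns WT and 15.1, 18.2, 15.9 and 15 CPM in Ctns KO rats 25 to 32. The ADGRE1 groups overlapped in both ranges. It rose in the mice by 0.58 (SE 0.07, adjusted p = 0.00655) (limma) and did not pass over all rats at -0.05 (SE 0.16, adjusted p = 0.832) (edgeR). ADGRE1 rose by 0.88 (SE 0.11, adjusted p = 0.000248) on the recovered mouse reads (edgeR). The difference between the species was -0.60 (SE 0.18, adjusted p = 0.0717) in limma and did not pass. MS4A7, a membrane protein of macrophages, was 0.0467, 0.0521, 0.0628 and 0.0492 in Ctns WT mice and 0.102, 0.101, 0.0993 and 0.0979 in Ctns KO mice, with all 4 Ctns KO mice close to 0.1. MS4A7 in rats was 1.13, 1.27, 1.08 and 1.35 CPM in Ctns WT and 0.862, 1.46, 1.3 and 0.803 CPM in Ctns KO rats 17 to 24. For MS4A7 the second range gave 1.79, 1.42, 1.959 and 0.964 CPM in Ctns WT and 2.08, 3.47, 1.84 and 1.62 CPM in Ctns KO rats 25 to 32. The MS4A7 groups overlapped in both ranges. It rose in the mice by 0.39 (SE 0.04, adjusted p = 0.00312) (limma) and gave 0.30 (SE 0.26, adjusted p = 0.428) over all rats, which did not pass (edgeR); the species difference of -0.32 (SE 0.10, adjusted p = 0.0921) did not pass either. MS4A7 rose by 0.91 (SE 0.14, adjusted p = 0.00108) on the recovered mouse reads (edgeR).

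CD14, the co-receptor for bacterial lipopolysaccharide, differed by range. CD14 in rats was 7.61, 7.02, 8.21 and 8.29 CPM in Ctns WT and 7.89, 9.39, 7.75 and 7.94 CPM in Ctns KO rats 17 to 24. For CD14 the second range gave 5.21, 6.13, 6.67 and 5.82 CPM in Ctns WT and 11.9, 14.9, 13 and 12.2 CPM in Ctns KO rats 25 to 32. In rats 17 to 24 the CD14 groups overlapped, while in rats 25 to 32 all Ctns KO rats lay above every Ctns WT rat and the Ctns WT rats lay below those of the first range. The log2 fold change of CD14 was 0.09 (SE 0.10, adjusted p = 0.698) in rats 17 to 24 and 1.12 (SE 0.12, adjusted p = 4.49e-05) in rats 25 to 32, and the difference between them was 1.04 (SE 0.15, adjusted p = 0.000435) in edgeR. CD14 in the mice was 0.169, 0.142, 0.13 and 0.133 in Ctns WT mice and 0.157, 0.193, 0.21 and 0.184 in Ctns KO mice, with overlap and a change of 0.23 (SE 0.07, adjusted p = 0.131) that did not pass in limma. CD14 gave 0.36 (SE 0.12, adjusted p = 0.0876) on the recovered mouse reads (edgeR), which did not pass. LYZ, lysozyme, was 0.234, 0.24, 0.284 and 0.309 in Ctns WT mice and 0.35, 0.588, 0.556 and 0.375 in Ctns KO mice. LYZ in rats was 0.403, 0.354, 0.307 and 0.188 CPM in Ctns WT and 0.479, 0.644, 0.528 and 0.463 CPM in Ctns KO rats 17 to 24. For LYZ the second range gave 0.409, 0.414, 0.226 and 0.222 CPM in Ctns WT and 0.591, 0.886, 0.768 and 0.729 CPM in Ctns KO rats 25 to 32. The LYZ groups did not overlap in the mice or over all rats. Its change was 0.61 (SE 0.16, adjusted p = 0.0753) in the mice (limma), which did not pass, and 0.99 (SE 0.21, adjusted p = 0.00203) over all rats (edgeR). In rats 17 to 24 LYZ gave 0.77 (SE 0.31, adjusted p = 0.178) in edgeR, which did not pass. In rats 25 to 32 LYZ rose by 1.18 (SE 0.29, adjusted p = 0.00774) (edgeR). LYZ rose by 0.78 (SE 0.17, adjusted p = 0.0204) on the recovered mouse reads (edgeR). Reads on LYZ were not whole numbers in either table, so more than 1 lysozyme gene may stand under the symbol.

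Among the Fc, adaptor and lectin receptors, all 5 in the mouse table rose, 3 of 6 tested rose in rats 17 to 24 and 5 of 6 in rats 25 to 32. TREM2, a lipid-binding receptor of macrophages that signals through TYROBP, was counted in 12, 6, 13 and 21 reads in Ctns WT mice and 41, 57, 33 and 47 reads in Ctns KO mice. As scaled values TREM2 was 0.00794, 0.00712, 0.00926 and 0.0103 in Ctns WT mice and 0.0433, 0.0441, 0.0211 and 0.0283 in Ctns KO mice. TREM2 in rats was 0.684, 0.206, 0.553 and 0.471 CPM in Ctns WT and 1.21, 2.1, 1.51 and 1.45 CPM in Ctns KO rats 17 to 24. For TREM2 the second range gave 0.632, 0.646, 0.98 and 0.815 CPM in Ctns WT and 6, 8.92, 6.45 and 8.46 CPM in Ctns KO rats 25 to 32. The TREM2 groups did not overlap in any comparison, and the 4 Ctns KO rats 25 to 32 stood clear of every other rat. It rose by 0.30 (SE 0.06, adjusted p = 0.028) in the mice in limma. For TREM2, leaving out any 1 of 6 animals (WT 1, 2, 4, 7 and KO 3, 5) ended the call (adjusted p 0.0622 to 0.0692) in the mice. TREM2 rose by 1.94 (SE 0.31, adjusted p = 0.00118) in edgeR on the recovered reads. In edgeR the rise of TREM2 was 1.74 (SE 0.31, adjusted p = 0.00496) in rats 17 to 24 and 3.28 (SE 0.20, adjusted p = 1.85e-06) in rats 25 to 32.

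TYROBP, the adaptor that carries the signals of TREM2 and other receptors, was 0.207, 0.169, 0.167 and 0.185 in Ctns WT mice and 0.252, 0.314, 0.305 and 0.239 in Ctns KO mice. TYROBP in rats was 15.3, 16.4, 10.3 and 11.3 CPM in Ctns WT and 19.6, 20.1, 19.2 and 19.3 CPM in Ctns KO rats 17 to 24. For TYROBP the second range gave 15.4, 14.6, 19.7 and 17.2 CPM in Ctns WT and 33.2, 44.8, 37.5 and 40.1 CPM in Ctns KO rats 25 to 32. The TYROBP groups did not overlap in the mice or within either rat range. It rose by 0.42 (SE 0.08, adjusted p = 0.0307) in the mice (limma). For TYROBP, leaving out any 1 of 6 animals (WT 2, 4, 7 and KO 3, 5, 6) ended the call (adjusted p 0.0527 to 0.0895) in the mice. TYROBP rose by 0.59 (SE 0.11, adjusted p = 0.00496) on the recovered mouse reads (edgeR). Its rise was 0.56 (SE 0.13, adjusted p = 0.0225) in rats 17 to 24 (edgeR). For TYROBP, leaving out any 1 of 5 animals (WT 23 and KO 18, 20, 22, 24) ended the call (adjusted p 0.0528 to 0.0718) in rats 17 to 24. TYROBP rose by 1.22 (SE 0.11, adjusted p = 2.56e-05) in rats 25 to 32. FCER1G, the signalling chain of Fc receptors, was 0.142, 0.125, 0.125 and 0.149 in Ctns WT mice and 0.203, 0.238, 0.24 and 0.192 in Ctns KO mice, with no overlap. FCER1G in rats was 24.2, 24.1, 18.8 and 17.8 CPM in Ctns WT and 25.9, 27.1, 26 and 25.1 CPM in Ctns KO rats 17 to 24. For FCER1G the second range gave 30.1, 26.8, 38.6 and 29.2 CPM in Ctns WT and 43.2, 62.1, 45.2 and 53 CPM in Ctns KO rats 25 to 32. The FCER1G groups did not overlap within a range, but the Ctns WT values of rats 25 to 32 reached and exceeded those of Ctns KO rats 17 to 24. It rose by 0.44 (SE 0.06, adjusted p = 0.0122) in the mice (limma) and 0.71 (SE 0.13, adjusted p = 0.0019) in rats 25 to 32 (edgeR), and did not pass over all rats at 0.55 (SE 0.21, adjusted p = 0.0571). In rats 17 to 24 FCER1G gave 0.30 (SE 0.10, adjusted p = 0.0882) in edgeR, which did not pass. FCER1G rose by 0.67 (SE 0.11, adjusted p = 0.00181) on the recovered mouse reads (edgeR).

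CD84, an adhesion receptor of the SLAM family, was 0.0333, 0.0356, 0.0346 and 0.042 in Ctns WT mice and 0.0569, 0.074, 0.0596 and 0.067 in Ctns KO mice, without overlap. CD84 in rats was 0.966, 0.884, 0.83 and 1.07 CPM in Ctns WT and 1.6, 1.19, 1.76 and 1.88 CPM in Ctns KO rats 17 to 24. For CD84 the second range gave 1.04, 1.71, 0.942 and 1.07 CPM in Ctns WT and 2.92, 2.21, 3.07 and 2.47 CPM in Ctns KO rats 25 to 32. The CD84 groups were apart within each range, and Ctns WT rat 27 lay well above the other Ctns WT rats. It rose by 0.27 (SE 0.04, adjusted p = 0.0121) in the mice (limma), 1.14 (SE 0.22, adjusted p = 0.00213) in rats 25 to 32 and 0.79 (SE 0.21, adjusted p = 0.0416) in rats 17 to 24 (edgeR). CD84 rose by 0.80 (SE 0.17, adjusted p = 0.0092) on the recovered mouse reads (edgeR). For CD84, leaving out any 1 of 7 animals (WT 17, 19, 21, 23 and KO 18, 22, 24) ended the call (adjusted p 0.0523 to 0.134) in rats 17 to 24. CLEC7A, a receptor for fungal glucans, was 0.0422, 0.0356, 0.0401 and 0.042 in Ctns WT mice and 0.0663, 0.0809, 0.0728 and 0.0676 in Ctns KO mice, with no overlap and a rise of 0.30 (SE 0.03, adjusted p = 0.00643) (limma). CLEC7A rose by 0.82 (SE 0.16, adjusted p = 0.00449) on the recovered mouse reads (edgeR). FCGR1A, the high-affinity receptor for IgG, rose over all rats by 0.56 (SE 0.15, adjusted p = 0.00949) (edgeR). FCGR1A rose by 0.74 (SE 0.12, adjusted p = 0.000611) in rats 25 to 32 (edgeR). In rats 17 to 24 FCGR1A gave 0.32 (SE 0.09, adjusted p = 0.0561) in edgeR, which did not pass. LILRB4, an inhibitory receptor whose rat reads were not whole numbers, did not pass over all rats at 0.25 (SE 0.13, adjusted p = 0.165) (edgeR).

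**Figure D3:**
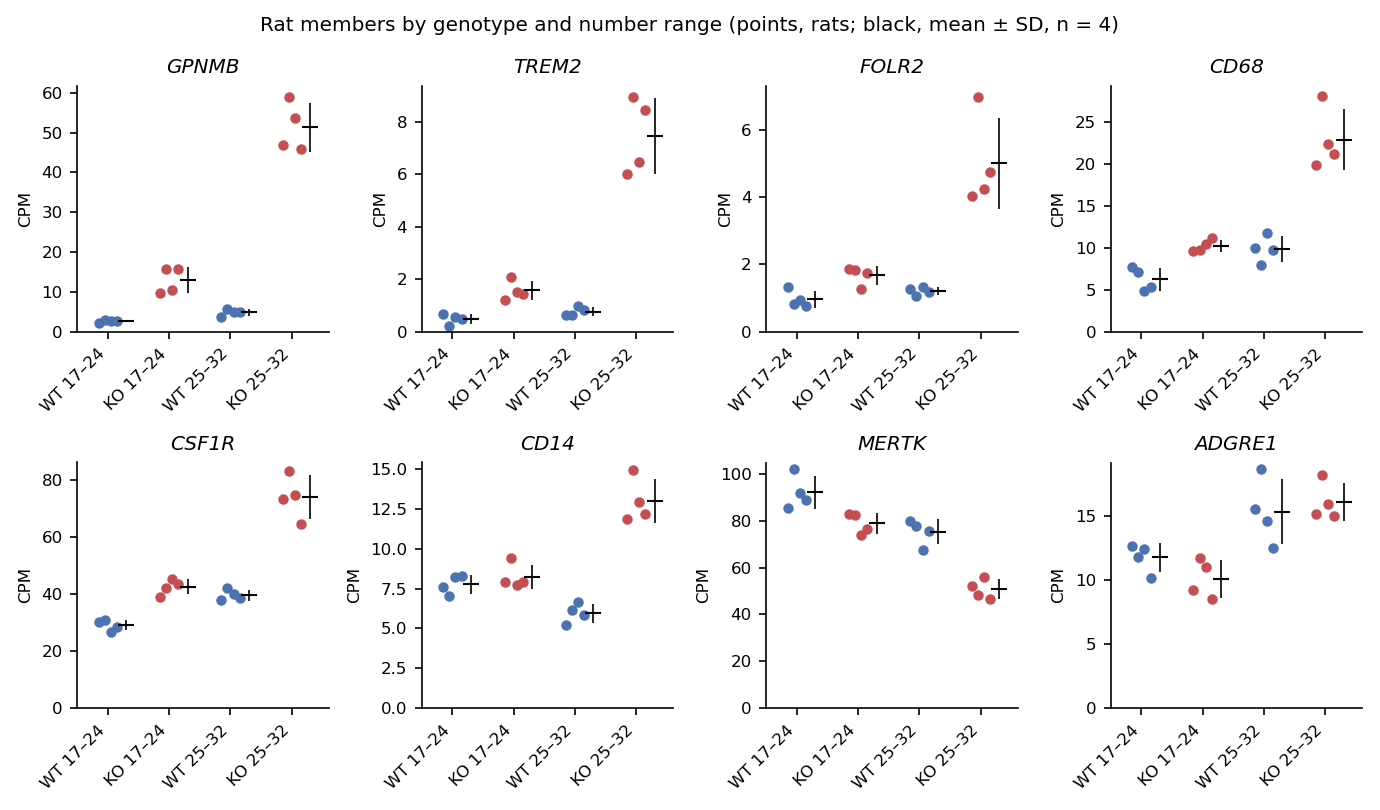
CPM (y axis, starting at 0) of 8 members in each rat, by genotype and number range (x axis, blue Ctns WT, red Ctns KO); black marks are the mean and SD of 4 rats. GPNMB and TREM2 rise in both ranges and most in rats 25 to 32, CD14 is apart only in rats 25 to 32, MERTK is lower in Ctns KO, and the ADGRE1 groups overlap.

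The scavenger and resident macrophage receptors that could be measured rose in the rats, and 3 of the 6 could hardly be measured. MRC1, the mannose receptor, was 0.122, 0.147, 0.122 and 0.142 in Ctns WT mice and 0.193, 0.282, 0.271 and 0.185 in Ctns KO mice, without overlap. MRC1 in rats was 1.77, 1.24, 2.49 and 3.2 CPM in Ctns WT and 3.96, 5.96, 5.81 and 6.08 CPM in Ctns KO rats 17 to 24. For MRC1 the second range gave 1.71, 3.08, 2.45 and 3 CPM in Ctns WT and 8.49, 11.6, 10.2 and 8.26 CPM in Ctns KO rats 25 to 32. The MRC1 groups did not overlap over all rats. It rose by 0.50 (SE 0.11, adjusted p = 0.0468) in the mice (limma). For MRC1, leaving out any 1 of 7 animals (WT 1, 2, 4, 7 and KO 3, 5, 6) ended the call (adjusted p 0.0562 to 0.118) in the mice, as did a pseudocount of 1 (adjusted p 0.0679). MRC1 rose by 0.79 (SE 0.14, adjusted p = 0.00349) on the recovered mouse reads (edgeR). MRC1 rose by 1.33 (SE 0.26, adjusted p = 0.00953) and 1.90 (SE 0.19, adjusted p = 3.93e-05) in the rat ranges (edgeR). FOLR2, a folate receptor of resident macrophages, was 1.33, 0.826, 0.953 and 0.753 CPM in Ctns WT and 1.85, 1.83, 1.27 and 1.73 CPM in Ctns KO rats 17 to 24. For FOLR2 the second range gave 1.26, 1.06, 1.32 and 1.19 CPM in Ctns WT and 4.04, 6.98, 4.24 and 4.74 CPM in Ctns KO rats 25 to 32. In rats 17 to 24 FOLR2 in Ctns KO rat 22 lay below Ctns WT rat 17, whereas in rats 25 to 32 the groups were far apart. It rose by 0.82 (SE 0.23, adjusted p = 0.0498) in rats 17 to 24 (edgeR). For FOLR2, leaving out any 1 of 6 animals (WT 19, 21, 23 and KO 18, 20, 24) ended the call (adjusted p 0.11 to 0.134) in rats 17 to 24, as did DESeq2's size factors in edgeR (adjusted p 0.052) and the filter of at least 1 read in any rat (adjusted p 0.0528). FOLR2 rose by 2.05 (SE 0.21, adjusted p = 3.93e-05) in rats 25 to 32.

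MSR1, a scavenger receptor for modified lipoproteins, had 15, 8, 20 and 35 reads in Ctns WT mice and 14, 17, 27 and 32 reads in Ctns KO mice. As scaled values MSR1 was 0.00984, 0.00932, 0.0141 and 0.0171 in Ctns WT mice and 0.0151, 0.0134, 0.0173 and 0.0193 in Ctns KO mice, with overlap and a change of 0.05 (SE 0.03, adjusted p = 0.397) that did not pass (limma). MSR1 gave 0.33 (SE 0.29, adjusted p = 0.557) on the recovered mouse reads (edgeR), which did not pass. MSR1 in rats was 0.886, 0.649, 0.584 and 1.04 CPM in Ctns WT and 1.66, 1.52, 1.3 and 1.82 CPM in Ctns KO rats 17 to 24. For MSR1 the second range gave 0.893, 0.646, 0.867 and 1.07 CPM in Ctns WT and 1.65, 2.42, 1.75 and 1.9 CPM in Ctns KO rats 25 to 32. The MSR1 groups did not overlap over all rats. It rose by 1.16 (SE 0.21, adjusted p = 0.00159) in rats 25 to 32 and by 1.02 (SE 0.23, adjusted p = 0.0191) in rats 17 to 24 (edgeR). For MSR1, leaving out any 1 of 3 animals (WT 19, 21 and KO 24) ended the call (adjusted p 0.0534 to 0.0712) in rats 17 to 24. CD163, the receptor for haptoglobin and haemoglobin, had 8, 4, 7 and 11 reads in Ctns WT mice and 10, 11, 6 and 16 in Ctns KO mice, and the log2 fold change of 0.04 (SE 0.02, adjusted p = 0.279) did not pass in limma. MARCO and VSIG4, receptors of resident macrophages in other organs, had 0 reads in every mouse, and in the rats CD163, MARCO and VSIG4 reached at most 0.277 CPM in any animal and were left out by the filter on low counts.

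The genes for clearing dead cells and for the lysosome held both the largest rise and the only fall. GPNMB, a glycoprotein of lysosomes that macrophages and other cells make, had 27, 9, 41 and 16 reads in Ctns WT mice and 73, 116, 72 and 144 reads in Ctns KO mice. As scaled values GPNMB was 0.0175, 0.0104, 0.0285 and 0.00793 in Ctns WT mice and 0.0768, 0.0893, 0.0457 and 0.086 in Ctns KO mice. GPNMB in rats was 2.29, 2.86, 2.74 and 2.67 CPM in Ctns WT and 9.68, 15.6, 10.4 and 15.7 CPM in Ctns KO rats 17 to 24. For GPNMB the second range gave 3.79, 5.76, 4.9 and 5 CPM in Ctns WT and 46.8, 58.9, 53.7 and 45.8 CPM in Ctns KO rats 25 to 32. The GPNMB groups did not overlap in any comparison, and the lowest Ctns KO rat of the first range was above the highest Ctns WT rat of the second. It rose by 0.58 (SE 0.09, adjusted p = 0.0165) in the mice in limma and by 2.21 (SE 0.36, adjusted p = 0.00273) in edgeR on the recovered reads. In edgeR the rise of GPNMB was 3.09 (SE 0.41, adjusted p = 5.34e-05) over all rats, 2.29 (SE 0.18, adjusted p = 2.16e-05) in rats 17 to 24 and 3.39 (SE 0.13, adjusted p = 1.49e-07) in rats 25 to 32.

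AXL and MERTK, sister receptor kinases that bind dying cells through bridging ligands, moved in opposite directions in the rats. AXL was 0.868, 0.998, 0.846 and 0.83 in Ctns WT mice and 1.29, 1.33, 1.25 and 1.36 in Ctns KO mice, without overlap. AXL in rats was 25.2, 33.6, 25.1 and 33.4 CPM in Ctns WT and 36.2, 44.6, 46.2 and 43.9 CPM in Ctns KO rats 17 to 24. For AXL the second range gave 28.3, 32, 28.5 and 25.3 CPM in Ctns WT and 60.7, 63.4, 73.7 and 47.6 CPM in Ctns KO rats 25 to 32. No AXL value of a Ctns KO rat lay among those of Ctns WT rats. It rose by 0.52 (SE 0.06, adjusted p = 0.00524) in the mice (limma), by 1.11 (SE 0.13, adjusted p = 8.61e-05) in rats 25 to 32 and by 0.55 (SE 0.12, adjusted p = 0.017) in rats 17 to 24 (edgeR). AXL rose by 0.55 (SE 0.07, adjusted p = 0.000208) on the recovered mouse reads (edgeR). For AXL, leaving out any 1 of 3 animals (KO 20, 22, 24) ended the call (adjusted p 0.0502 to 0.0552) in rats 17 to 24. MERTK was 2.13, 2.05, 1.94 and 1.88 in Ctns WT mice and 1.84, 1.7, 1.88 and 1.85 in Ctns KO mice, with overlap and a change of -0.13 (SE 0.05, adjusted p = 0.214) that did not pass (limma). MERTK gave -0.15 (SE 0.06, adjusted p = 0.162) on the recovered mouse reads (edgeR), which did not pass. MERTK in rats was 85.6, 102, 91.9 and 89 CPM in Ctns WT and 82.9, 82.4, 73.7 and 76.4 CPM in Ctns KO rats 17 to 24. For MERTK the second range gave 80.0, 77.7, 67.7 and 75.7 CPM in Ctns WT and 52.1, 48.4, 56.2 and 46.5 CPM in Ctns KO rats 25 to 32. Within each range every Ctns KO rat lay below every Ctns WT rat for MERTK. Its log2 fold change was -0.57 (SE 0.08, adjusted p = 0.000335) in rats 25 to 32, -0.22 (SE 0.06, adjusted p = 0.0612), which did not pass, in rats 17 to 24, and -0.37 (SE 0.13, adjusted p = 0.0422) over all rats (edgeR). For MERTK, leaving out any 1 of 11 animals (WT 17, 19, 21, 23, 25, 27, 31 and KO 26, 28, 30, 32) ended the call (adjusted p 0.0524 to 0.104) over all rats. LGMN, a lysosomal protease that tubule cells also make, did not pass in the mice at 0.08 (SE 0.11, adjusted p = 0.799) (limma) or over all rats at -0.03 (SE 0.14, adjusted p = 0.879) (edgeR). LGMN gave 0.05 (SE 0.10, adjusted p = 0.818) on the recovered mouse reads (edgeR), which did not pass. LGMN ranged from 1122 to 1412 CPM in rats 17 to 24 and from 1661 to 2061 CPM in rats 25 to 32, with the genotypes overlapping in each.

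Of the phagocyte oxidase and phagosome genes 3 of 3 tested rose over all rats, and 2 of 3 in rats 17 to 24 (edgeR). In the mice 0 of 3 passed in limma, with 2 at an unadjusted p under 0.05, and edgeR on recovered reads called SLC11A1 higher at 0.63 (SE 0.17, adjusted p = 0.0304). CYBB, the catalytic subunit of the oxidase, was 0.24, 0.254, 0.277 and 0.322 in Ctns WT mice and 0.344, 0.364, 0.34 and 0.358 in Ctns KO mice; the groups did not overlap, but 0.28 (SE 0.07, adjusted p = 0.0642) did not pass (limma). CYBB gave 0.34 (SE 0.10, adjusted p = 0.0516) on the recovered mouse reads (edgeR), which did not pass. CYBB in rats was 15.7, 17.2, 13.7 and 16.7 CPM in Ctns WT and 24.3, 26.2, 29 and 25 CPM in Ctns KO rats 17 to 24. For CYBB the second range gave 19.6, 23.3, 20.2 and 18.7 CPM in Ctns WT and 30.6, 33.8, 42.6 and 24.2 CPM in Ctns KO rats 25 to 32. The CYBB values of all Ctns KO rats lay above those of all Ctns WT rats. It rose by 0.73 (SE 0.09, adjusted p = 0.000303) and 0.68 (SE 0.15, adjusted p = 0.00484) in the ranges (edgeR). NCF4, a cytosolic subunit, was 0.0327, 0.0268, 0.0353 and 0.0334 in Ctns WT mice and 0.0298, 0.0502, 0.0375 and 0.0485 in Ctns KO mice, with overlap and 0.10 (SE 0.05, adjusted p = 0.362), which did not pass (limma). NCF4 gave 0.35 (SE 0.21, adjusted p = 0.359) on the recovered mouse reads (edgeR), which did not pass. NCF4 in rats was 5.11, 4.3, 3.5 and 3.45 CPM in Ctns WT and 5.65, 5.42, 5.95 and 6.36 CPM in Ctns KO rats 17 to 24. For NCF4 the second range gave 5.84, 4.27, 4.37 and 6.08 CPM in Ctns WT and 8.71, 10.9, 9.89 and 11.7 CPM in Ctns KO rats 25 to 32. The NCF4 groups did not overlap within a range. It rose by 0.53 (SE 0.14, adjusted p = 0.041) in rats 17 to 24 (edgeR). For NCF4, leaving out any 1 of 7 animals (WT 19, 21, 23 and KO 18, 20, 22, 24) ended the call (adjusted p 0.0653 to 0.124) in rats 17 to 24. NCF4 rose by 1.01 (SE 0.15, adjusted p = 0.000431) in rats 25 to 32. SLC11A1, a metal transporter of the phagosome, rose over all rats by 0.43 (SE 0.13, adjusted p = 0.0208) (edgeR) and gave 0.26 (SE 0.06, adjusted p = 0.0554) in the mice, which did not pass in limma. In rats 17 to 24 SLC11A1 gave 0.35 (SE 0.11, adjusted p = 0.0786) in edgeR, which did not pass, although the groups did not overlap. Within rats 25 to 32 SLC11A1 rose by 0.51 (SE 0.19, adjusted p = 0.0463) (edgeR). For SLC11A1, leaving out any 1 of 6 animals (WT 25, 27, 31 and KO 28, 30, 32) ended the call (adjusted p 0.0653 to 0.123) in rats 25 to 32.

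Of the receptors for complement fragments, C5AR1 rose and C3AR1 did not pass in the main tests. C5AR1 had 19, 8, 24 and 36 reads in Ctns WT mice and 26, 40, 45 and 50 reads in Ctns KO mice. As scaled values C5AR1 was 0.0124, 0.00932, 0.0168 and 0.0175 in Ctns WT mice and 0.0277, 0.031, 0.0287 and 0.0301 in Ctns KO mice. C5AR1 in rats was 3.38, 3.6, 2.86 and 2.79 CPM in Ctns WT and 3.99, 4.27, 4.72 and 4.91 CPM in Ctns KO rats 17 to 24. For C5AR1 the second range gave 3.79, 3.95, 4.26 and 4.34 CPM in Ctns WT and 7.53, 11, 9.34 and 7.85 CPM in Ctns KO rats 25 to 32. The C5AR1 groups did not overlap in the mice or within a rat range. It rose by 0.18 (SE 0.02, adjusted p = 0.00822) in the mice (limma), by 1.13 (SE 0.14, adjusted p = 0.000143) in rats 25 to 32 and by 0.51 (SE 0.14, adjusted p = 0.0416) in rats 17 to 24 (edgeR). C5AR1 rose by 1.02 (SE 0.25, adjusted p = 0.0205) on the recovered mouse reads (edgeR). For C5AR1, leaving out any 1 of 5 animals (WT 21, 23 and KO 20, 22, 24) ended the call (adjusted p 0.0858 to 0.128) in rats 17 to 24. C3AR1 gave 0.35 (SE 0.10, adjusted p = 0.092) in the mice (limma) and 0.38 (SE 0.16, adjusted p = 0.0853) over all rats (edgeR), while edgeR on the recovered mouse reads gave 0.75 (SE 0.19, adjusted p = 0.0239), past the threshold.

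Among genes that steer T cells, HAVCR2 rose in both species. CD80 and CD86 passed in rats 25 to 32, and neither passed in rats 17 to 24 or in the mice. HAVCR2, an inhibitory receptor of T cells and myeloid cells, was 0.0245, 0.0225, 0.0209 and 0.0387 in Ctns WT mice and 0.058, 0.0479, 0.0577 and 0.0444 in Ctns KO mice, without overlap. HAVCR2 in rats was 0.242, 0.0885, 0.184 and 0.126 CPM in Ctns WT and 0.511, 0.678, 0.669 and 0.679 CPM in Ctns KO rats 17 to 24. For HAVCR2 the second range gave 0.112, 0.517, 0.377 and 0.222 CPM in Ctns WT and 0.684, 1.02, 1.14 and 0.607 CPM in Ctns KO rats 25 to 32. The HAVCR2 groups did not overlap within a range. It rose by 0.26 (SE 0.05, adjusted p = 0.0325) in the mice (limma). For HAVCR2, leaving out any 1 of 6 animals (WT 1, 2, 4 and KO 3, 5, 6) ended the call (adjusted p 0.071 to 0.0945) in the mice. HAVCR2 rose by 0.91 (SE 0.23, adjusted p = 0.0221) on the recovered mouse reads (edgeR). HAVCR2 rose by 2.01 (SE 0.35, adjusted p = 0.0041) and 1.43 (SE 0.39, adjusted p = 0.0142) in the rat ranges (edgeR). CD86, a costimulatory ligand, rose by 0.43 (SE 0.12, adjusted p = 0.0168) over all rats (edgeR) and gave 0.24 (SE 0.07, adjusted p = 0.0945) in the mice, which did not pass (limma). CD86 gave 0.66 (SE 0.21, adjusted p = 0.0707) on the recovered mouse reads (edgeR), which did not pass. CD80, its partner ligand, was left out over all rats by the filter on low counts. In rats 25 to 32 CD80 had 2, 9, 0 and 3 reads in Ctns WT and 23, 26, 29 and 13 reads in Ctns KO rats, a rise of 2.68 (SE 0.49, adjusted p = 0.00159) (edgeR). CD86 rose there by 0.59 (SE 0.13, adjusted p = 0.00378) in edgeR. In rats 17 to 24 CD80 gave 1.38 (SE 0.62, adjusted p = 0.223) and CD86 gave 0.24 (SE 0.15, adjusted p = 0.397) in edgeR. Neither passed in rats 17 to 24, and the groups overlapped for both. The difference of the CD80 and CD86 changes between species was 0.11 (SE 0.04, adjusted p = 0.165) and 0.01 (SE 0.11, adjusted p = 0.988) in limma, and neither passed.

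**Figure D4:**
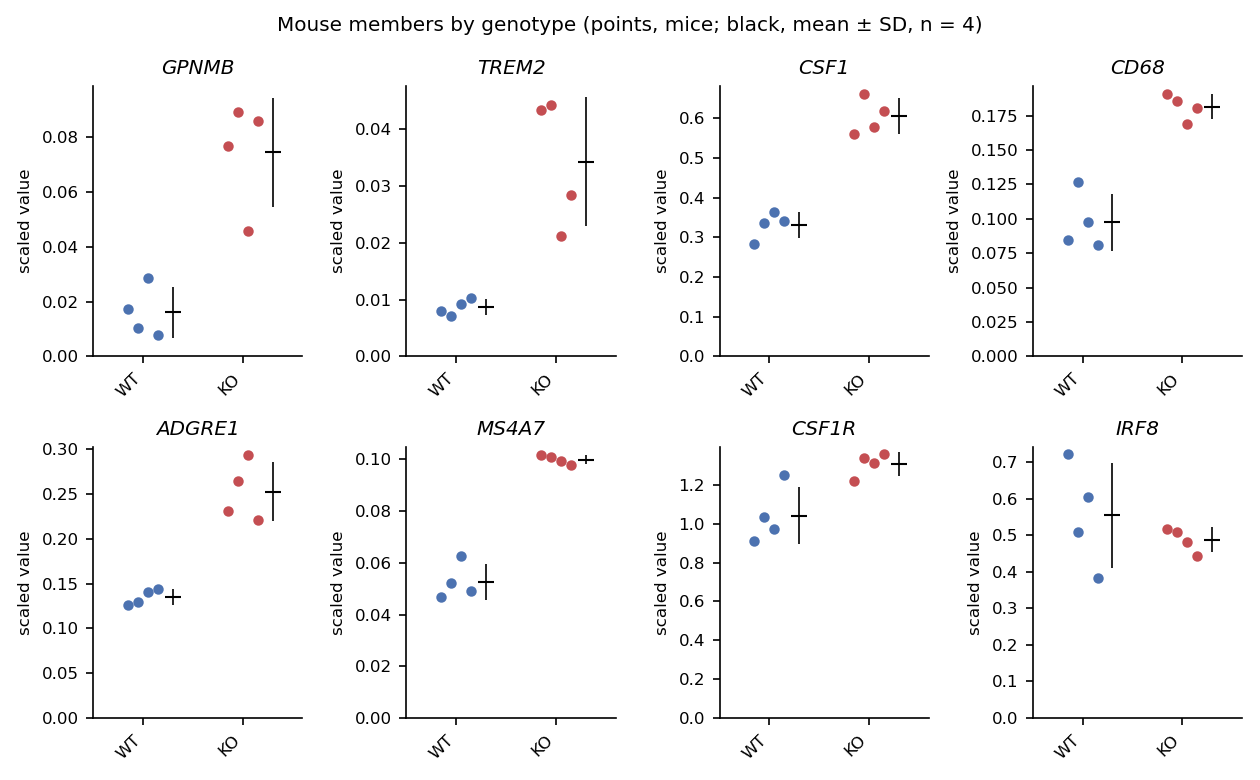
Deposited scaled value (y axis, starting at 0, where 1 is the 75th percentile of a library) of 8 members in each mouse, Ctns WT in blue and Ctns KO in red; black marks are the mean and SD of 4 mice. The genotypes are apart for GPNMB, TREM2, CSF1, CD68, ADGRE1 and MS4A7, and overlap for CSF1R and IRF8.

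The change differed between the rat ranges for 11 members. The test of that difference, the interaction of genotype and number range in edgeR, found 10 of 38 members with a larger value in rats 25 to 32 and 1 with a smaller value, beside 7.1% and 7.64% of all symbols. The largest called differences were TREM2 at 1.54 (SE 0.39, adjusted p = 0.0154), FOLR2 at 1.24 (SE 0.31, adjusted p = 0.0139) and GPNMB at 1.11 (SE 0.24, adjusted p = 0.00623) in edgeR. CD14 followed at 1.04, and CORO1A at 0.67 (SE 0.18, adjusted p = 0.0185). These 5 kept their call whichever rat was left out. TYROBP at 0.66 (SE 0.19, adjusted p = 0.0262), C5AR1 at 0.62 (SE 0.19, adjusted p = 0.0369), AXL at 0.56 (SE 0.18, adjusted p = 0.0473), LAPTM5 at 0.43 (SE 0.14, adjusted p = 0.041) and CSF1R at 0.35 (SE 0.10, adjusted p = 0.0349) lost it when any 1 of 5, 8, 12, 9 and 7 rats was left out, respectively, and AXL also with the filter of at least 1 read in any rat (adjusted p 0.0568). For MERTK the fall in the second range exceeded that in the first, with a difference of -0.35 (SE 0.10, adjusted p = 0.0338) in edgeR, and leaving out any 1 of 8 animals (WT 17, 21, 25, 27 and KO 18, 20, 28, 32) ended the call (adjusted p 0.056 to 0.0755). The count upward was 5 without Ctns WT rat 19 or Ctns KO rat 28 and 6 without any 1 of WT 17, WT 25, KO 18 and KO 20. Over all symbols it was 841 with all rats, 618 without Ctns WT rat 19, 487 without Ctns KO rat 28 and 601 to 723 without any 1 of the others named. IRF8 (0.18), PTPRC (0.18), MSR1 (0.15) and CYBB (-0.04) were among the 27 members whose difference did not pass.

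The ranges also differed without the knockout. Among Ctns WT rats, 8 of 38 members were higher in rats 25 to 32 than in rats 17 to 24 and 2 were lower, beside 11.7% and 9.43% of all symbols. GPNMB was higher by 0.88 (SE 0.18, adjusted p = 0.00223), CD68 by 0.66 (SE 0.15, adjusted p = 0.00522), ITGB2 by 0.58 (SE 0.10, adjusted p = 0.000669) and LGMN by 0.56 (SE 0.08, adjusted p = 0.000125) in edgeR. FCER1G, LAPTM5, CSF1R and ADGRE1 were higher by 0.55, 0.50, 0.45 and 0.39. For ADGRE1 (adjusted p = 0.0348, edgeR), leaving out any 1 of 5 animals (WT 19, 23, 25, 27, 29) ended the call (adjusted p 0.0661 to 0.117). CD14 and MERTK were lower in the second range, at -0.38 (SE 0.11, adjusted p = 0.0161) and -0.29 (SE 0.07, adjusted p = 0.00839) in edgeR. The genotype difference over all rats thus pools ranges with different levels, and with the range as a covariate 32 of 38 members were higher and 1 lower in edgeR, beside 19.5% and 19.4% of all symbols.

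The species differed in the change of 3 members by the interaction of genotype and species in limma, with 2 of 38 larger and 1 smaller in the rats, beside 1.58% and 1.69% of all symbols. IRF8 had the larger change in rats by 0.65 (SE 0.18, adjusted p = 0.042), and leaving out any 1 of 14 animals (WT 1, 4, 17, 19, 21, 27, 31 and KO 3, 5, 6, 8, 26, 28, 30) ended the call (adjusted p 0.0507 to 0.108), as did a pseudocount of 1 (adjusted p 0.0636). MSR1 did so by 0.18 (SE 0.05, adjusted p = 0.0375), and leaving out any 1 of 10 animals (WT 4, 7, 19, 21, 27 and KO 3, 5, 6, 30, 32) ended the call (adjusted p 0.0515 to 0.0851), as did edgeR on the reads of both species (0.76, adjusted p 0.196). LYZ had the smaller change in rats, at -0.52 (SE 0.12, adjusted p = 0.0132) on the log2(value + 0.1) scale, while edgeR on the reads of both species gave 0.22 (adjusted p = 0.723), the other sign. Because low values are compressed on the limma scale, these differences depend on the level of a gene in each species. For GPNMB the species difference was 1.33 (SE 0.48, adjusted p = 0.137) and for TREM2 0.42 (SE 0.27, adjusted p = 0.455) in limma, and neither passed.

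**Figure D5:**
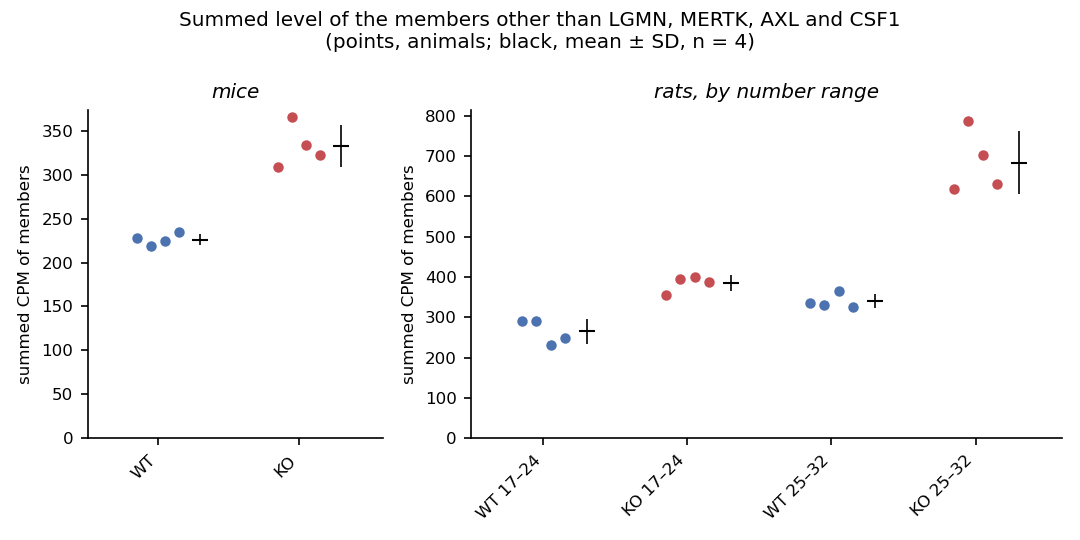
Summed CPM (y axis, starting at 0) of the members in the table other than LGMN, MERTK, AXL and CSF1, which tubule or stromal cells also make, in each mouse (left) and rat (right, by number range), with Ctns WT in blue, Ctns KO in red and the mean and SD of 4 animals in black. Ctns KO lies above Ctns WT in the mice (309 to 366 against 218 to 234 CPM), in rats 17 to 24 (356 to 399 against 231 to 290 CPM) and in rats 25 to 32 (617 to 786 against 326 to 366 CPM). GPNMB, which other cells also make, is kept in the sum drawn. With the genes left out kept in the sum, which is not drawn, the genotypes overlapped in each.

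Summed over the members other than LGMN, MERTK, AXL and CSF1, the level was 218 to 234 CPM in Ctns WT and 309 to 366 CPM in Ctns KO mice. It was 231 to 290 CPM in Ctns WT and 356 to 399 CPM in Ctns KO rats 17 to 24, and 326 to 366 CPM in Ctns WT and 617 to 786 CPM in Ctns KO rats 25 to 32. For this sum the groups did not overlap within the mice or within either rat range. It is given without a test because the 4 genes were left out with values known. They include MERTK, the 1 member called lower in Ctns KO rats. GPNMB, which other cells also make, was kept. Its level was 45.8 to 58.9 CPM in Ctns KO and 3.79 to 5.76 CPM in Ctns WT rats 25 to 32. With the 4 genes kept, the groups overlapped in the mice and in both rat ranges. The sums were then 1259 to 1592 CPM in Ctns WT and 1571 to 1715 CPM in Ctns KO mice. For rats 17 to 24 they were 1615 to 1745 CPM in Ctns WT and 1613 to 1954 CPM in Ctns KO. For rats 25 to 32 they were 2145.5 to 2538 CPM in Ctns WT and 2518 to 2889 CPM in Ctns KO. LGMN alone reached 2061 CPM in a Ctns WT rat.

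A list of 50 other myeloid genes, chosen with earlier results of these data known, also held mostly upward calls. In the mice 14 of 48 tested were higher and 0 lower (limma), beside 3.81% and 0.904% of all symbols. Over all rats 27 of 40 were higher and 1 lower (edgeR), beside 15.2% and 12.3% of all symbols. The median log2 fold changes were 0.15 in the mice and 0.69 over all rats, beside 0.00025 and -0.02 for all symbols. SPP1, the secreted protein osteopontin, which injured tubule cells also make, rose by 1.05 (SE 0.14, adjusted p = 0.00822) in the mice (limma) and 3.59 (SE 0.35, adjusted p = 2.82e-06) over all rats (edgeR). C1QA, a chain of the complement starter C1q, and TLR2, a receptor for bacterial lipoproteins, rose in the mice by 0.75 (SE 0.07, adjusted p = 0.00388) and 0.75 (SE 0.08, adjusted p = 0.00509) (limma). LGALS3, a galectin of macrophages and epithelium, and C1QB rose in the rats by 1.60 (SE 0.28, adjusted p = 0.000561) and 1.35 (SE 0.27, adjusted p = 0.00172) (edgeR). CSF2RB, a cytokine receptor chain named here after its values were seen, was the 1 gene that fell in the rats, with a change of -0.73 (SE 0.16, adjusted p = 0.00315) in edgeR.

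Markers of other cell types moved beside the members, and their part in the members' changes was not tested. The counts below stand beside 3.81% higher and 0.904% lower of all symbols in the mice (limma). Over all rats the shares of all symbols were 15.2% higher and 12.3% lower (edgeR). The share lower was 2.19% in rats 17 to 24, 22.1% in rats 25 to 32 and 2.85% on the recovered mouse reads (edgeR). Of the lymphocyte markers, 11 of 12 tested rose over all rats, led by CD3D, a chain of the T cell receptor, at 1.80 (SE 0.34, adjusted p = 0.00092) in edgeR, whereas 0 of 16 passed in the mice in limma, with 2 of the 16 at an unadjusted p under 0.05 and 0 of 15 called by edgeR on the recovered reads. Summed over the lymphocyte list the level was 23.5 to 32.1 CPM in Ctns WT and 39.7 to 43.7 CPM in Ctns KO rats 17 to 24, and 39.3 to 44.9 CPM and 70.9 to 85.6 CPM in rats 25 to 32. Fibroblast and matrix genes rose in 8 of 9 tested over all rats and 5 of 11 in the mice, with DCN, a matrix proteoglycan, at 1.66 (SE 0.19, adjusted p = 1.22e-05) in the rats (edgeR) and COL3A1, a fibrillar collagen, at 1.51 (SE 0.13, adjusted p = 0.00239) in the mice (limma). Proximal tubule genes fell in 7 of 9 tested over all rats and in 1 of 11 in the mice, led by SLC22A6, an organic anion transporter, at -0.75 (SE 0.22, adjusted p = 0.0169) in the rats (edgeR) and FBP1, an enzyme of gluconeogenesis, at -0.40 (SE 0.08, adjusted p = 0.04) in the mice (limma). Their sum was 25684 to 28764 CPM in Ctns WT and 13653 to 17181 CPM in Ctns KO rats 25 to 32. Of the dendritic cell markers 2 of 5 rose over all rats in edgeR. Among them XCR1, a chemokine receptor of dendritic cells that cross-present antigen, rose by 2.13 (SE 0.28, adjusted p = 5.79e-05) over all rats (edgeR). In the mice 0 of 9 dendritic cell markers passed in limma, where 3 had an unadjusted p under 0.05, and edgeR on recovered reads called 0 of 8. Neutrophil markers summed to at most 2.23 CPM in every animal, and ELANE and FPR1 were at 0 reads in all rats. Of the podocyte and endothelial markers 0 of 11 passed over all rats in edgeR, with 1 at an unadjusted p under 0.05, but 1 of 11 was lower in rats 17 to 24 and 3 of 11 were lower in rats 25 to 32. Those 3 were KDR, EMCN and PODXL, named after their values were seen, at -0.37 (SE 0.07, adjusted p = 0.00199), -0.29 (SE 0.07, adjusted p = 0.00727) and -0.35 (SE 0.10, adjusted p = 0.0131) in edgeR, and EMCN was the 1 in rats 17 to 24. In the mice 0 of 12 passed in limma, with 2 at an unadjusted p under 0.05, and edgeR on the recovered mouse reads called 2 of 12 lower. Of the distal nephron markers 2 of 6 were higher over all rats (edgeR). In the mice 0 of 8 passed (limma), with 1 at an unadjusted p under 0.05. Of the mast cell markers 0 of 1 passed over all rats, and 1 of 2 was lower in rats 25 to 32 (edgeR). In the mice 0 of 5 passed (limma), and edgeR on the recovered reads called 1 of 3 higher, beside 6.06% of all symbols.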

How the data were processed

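RNA from the kidneys of 8 mice and 16 rats was sequenced as stranded mRNA libraries, read in pairs on a NovaSeq instrument. The submitters' processing notes name bcl2fastq 2.20, STAR 2.7.3, DESeq2 1.24.0 and R 3.6.1 and the builds mm10 and rn5, with no role or order; whether counting used strand is not given in the sources used here. The mouse values were deposited as a scaled signal, found to equal (reads + 0.5) divided by (75th percentile + 0.5), from which whole reads were recovered for 98.99% of values within a tolerance of 0.01. The rat values were deposited by the authors in the unit of expected counts, reads plus a sixth of a read in 97.72% of values, and were rounded to whole numbers. Symbols are those of the tables, in capitals.

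Groups came from the labels. Mouse values were tested with limma 3.58.1, with its robust and trend settings, on log2(value + 0.1), and no filter on low values was set, and rat counts with the quasi-likelihood test of edgeR 4.0.16 with TMM scaling and filterByExpr, in R 4.3.3. The genotype-by-range, species and Ctns WT range comparisons used the same tools. DESeq2 1.42.0, limma-voom, other pseudocounts and filters and each animal left out were alternatives, and the limma and edgeR fits of the comparisons were first tested on simulated data. Depth was 19309401 to 44449807 reads per mouse library and 24684042 to 40629810 per rat library.

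The members and lists were chosen with earlier results of these data known. Values in every animal are given for members that passed in the mice, in both rat ranges or downward anywhere, or whose interaction passed; from each other list, up to 3 genes with the largest change past the threshold are named.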

Additional observations from a re-analysis of the deposited data

Results flagged for a closer look

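Of 148 groups of member values, 2 held an animal far from the others by Dixon's criterion, which chance meets in about 1 in 20 groups. LGMN in Ctns KO mouse 8 was the lowest of its group at 21.2 (scaled value), with the next at 23.3. CD84 in Ctns WT rat 27 was the highest of the Ctns WT rats at 1.71 CPM, with the next at 1.07 CPM.

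The genotype effect differed between rats 25 to 32 and rats 17 to 24 by the interaction term in edgeR (adjusted p) for TREM2 by 1.54 (0.0154), FOLR2 by 1.24 (0.0139), GPNMB by 1.11 (0.00623), CD14 by 1.04 (0.000435), CORO1A by 0.674 (0.0185), TYROBP by 0.662 (0.0262), C5AR1 by 0.621 (0.0369), AXL by 0.561 (0.0473), LAPTM5 by 0.435 (0.041), CSF1R by 0.348 (0.0349) and MERTK by -0.346 (0.0338) on the log2 scale. The effect differed between rats and mice by the interaction term in limma for IRF8 by 0.654 (adjusted p = 0.042), MSR1 by 0.182 (adjusted p = 0.0375) and LYZ by -0.517 (adjusted p = 0.0132).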

How the results depend on the processing

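Members called higher in the mice numbered 18, 11 to 16 when each mouse was left out and 16 to 26 under other settings. Over all symbols the count upward was 662 of 17376, and 366 to 606 with each mouse left out. Under the other settings it was 609 to 930 of 11588 to 17376 symbols. Over all rats 29 were higher, 29 to 31 with each rat left out and 29 to 32 otherwise, and 0 to 1 were lower with each rat left out. Of all symbols 1760 of 11584 were higher, and 1723 to 2285 under the other settings. With each rat left out 1458 to 1977 of all symbols were higher and 966 to 1583 lower, of 11599 to 11624. Among rats 17 to 24, leaving out each rat gave 14 to 23 higher and 0 to 1 lower, and DESeq2 gave 1 lower. Beside these, leaving out each rat gave 392 to 618 higher and 112 to 312 lower of 11661 to 11691 symbols. DESeq2 gave 469 lower of 11610 symbols there. Among rats 25 to 32 leaving out each rat gave 30 to 31 higher, beside 2145 to 2540 of 11667 to 11724 symbols. With each rat left out the genotype-by-range count was 5 to 11 higher and 0 to 1 lower, beside 487 to 1025 and 523 to 1388 of 11884 to 11925 symbols. The Ctns WT range count was 7 to 10 higher and 2 to 3 lower, beside 976 to 1427 and 849 to 1072 of 11907 to 11925 symbols. The species count was 0 to 2 higher and 1 to 3 lower with each animal left out, beside 129 to 303 and 176 to 309 of 14264 symbols. It was 1 higher and 3 lower with a pseudocount of 1, beside 272 and 301 of 14264 symbols. With edgeR on the reads of both species it was 1 higher, beside 207 of 12164 symbols, and the LYZ difference changed sign to 0.22. The cause of these changes was not tested. No paired analysis was run, because the sources used here do not say which animals share a litter.

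Depth limits the low members, such as TREM2 with 6 to 21 reads in Ctns WT mice. CTNS in the rats did not pass in the report's test but passed with DESeq2 and with a term for the range.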
